A study of Mus musculus with 12 samples.

Results

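Ribosomal protein (RP) genes encode the proteins of the cytosolic ribosome. The set described here comprised the protein-coding genes of GENCODE vM21 with the symbol Rpl or Rps followed by digits only and an optional final a, together with Rplp0, Rplp1, Rplp2 and Rpsa. The symbol rule gave 75 of 21938 protein-coding genes, 46 of the large and 29 of the small ribosomal subunit, and used no measured value. A gene was counted as called in a library when the summit of a peak lay within 1 kb of the start of any of its transcripts.

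The mammalian ribosome joins a small subunit, which binds the mRNA and decodes it, with a large subunit, which forms the peptide bonds. The genes of its proteins are among the most highly transcribed of dividing cells, most of them have short first exons and promoters rich in CpG, and their mRNAs begin with a run of pyrimidines, the TOP motif, through which their translation follows growth signals. In mitosis most factors and RNA polymerase leave the condensed chromosomes while many promoters stay accessible, so the promoters of these constantly used genes bear on how accessibility carries through the cell cycle.

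The libraries came from 2 male mouse embryonic stem cell (ESC) lines, WT (WT26) and the double null Suv39h dn (DN57), the latter lacking both Suv39h1 and Suv39h2, methyltransferases that place H3K9me3 on pericentromeric heterochromatin. Both were grown without feeder cells in medium with serum and leukaemia inhibitory factor, and each genotype was 1 line, so line and genotype cannot be told apart. ATAC-seq, in which a transposase cuts accessible DNA and tags it for sequencing, was applied to nuclei of 50000 asynchronous cells without drug, to 50000 cells arrested in mitosis with 0.1 µg/ml of demecolcine for 6 h, or to 2000000 flow-sorted chromosomes from cells arrested in the same way. There were 2 libraries for each of the 6 groups, 12 in all, and nothing in the labels says that duplicates were separate cultures, so that their spread may be technical.

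The 12 peak lists held between 1746 peaks (mitotic Suv39h dn replicate 1, which stood apart as the shortest) and 80602 peaks (asynchronous Suv39h dn replicate 2), and the lowest background of a library, a measure of relative depth, lay between 0.149 and 0.328 fragments per base. Of 10 ESC marker promoters, 70.0% were called on average in the asynchronous libraries, against 37.5% of 6 fibroblast and 45.8% of 6 endoderm or mesoderm marker promoters, and on sorted chromosomes the shares were 50.0%, 41.7% and 66.7%. Pou5f1 was called in 3 of the 4 asynchronous libraries and Nanog in 2. The promoters of the targeted genes were called in 2 libraries (Suv39h1) and 6 libraries (Suv39h2), and a promoter peak does not check a deletion. An average RP call rested on few fragments. The median was 8 fragments at the summit over all 475 RP calls, with a range from 3 to 33. A list holds only the peaks past a q-value of 0.05, so the lack of a call gives no level, and in bulk material fewer cells or chromosomes open at a site and less opening in each cannot be told apart.

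The promoters called most and least often are shown first, because they span the range from nearly all libraries to none. Printed are the 120 bases upstream of the transcript start in the RefSeq table (GRCm38.p6, the assembly of mm10), 5′ to 3′ on the strand of the gene, for the 4 named members called most and the 4 called least that have an entry there. Capitals mark matches, on either strand, to the ETS motif CCGGAAG, the SP1/KLF motif GGGCGG or the palindrome-like TCTCGCGA. Called most were Rpl15 (chr14:18270987-18271106, minus strand), Rpl37 (chr15:5116493-5116612, plus strand), Rps13 (chr7:116334191-116334310, minus strand) and Rps6 (chr4:86857368-86857487, minus strand).
Rpl15: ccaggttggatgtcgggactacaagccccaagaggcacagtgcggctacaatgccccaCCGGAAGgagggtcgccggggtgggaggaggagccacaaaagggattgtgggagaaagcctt
Rpl37: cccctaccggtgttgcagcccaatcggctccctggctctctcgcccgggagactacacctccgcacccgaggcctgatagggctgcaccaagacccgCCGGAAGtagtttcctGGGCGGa
Rps13: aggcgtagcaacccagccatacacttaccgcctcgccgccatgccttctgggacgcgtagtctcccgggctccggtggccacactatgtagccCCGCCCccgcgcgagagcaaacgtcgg
Rps6: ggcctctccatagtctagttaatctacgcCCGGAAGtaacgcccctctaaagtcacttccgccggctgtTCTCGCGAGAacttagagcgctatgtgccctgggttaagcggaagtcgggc

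Called least were Rpl19 (chr11:98026804-98026923, plus strand), Rps10 (chr17:27635245-27635364, minus strand), Rpl23 (chr11:97782440-97782559, minus strand) and Rpl35a (chr16:33056333-33056452, plus strand).
Rpl19: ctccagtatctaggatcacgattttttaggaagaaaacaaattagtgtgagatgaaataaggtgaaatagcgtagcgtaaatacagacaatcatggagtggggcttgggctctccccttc
Rps10: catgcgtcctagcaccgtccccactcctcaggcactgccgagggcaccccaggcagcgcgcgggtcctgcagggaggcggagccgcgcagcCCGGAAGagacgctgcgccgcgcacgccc
Rpl23: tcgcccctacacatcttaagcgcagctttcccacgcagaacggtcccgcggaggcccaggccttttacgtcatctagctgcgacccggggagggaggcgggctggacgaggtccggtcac
Rpl35a: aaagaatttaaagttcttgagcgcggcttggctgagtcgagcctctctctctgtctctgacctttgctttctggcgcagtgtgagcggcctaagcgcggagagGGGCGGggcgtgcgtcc

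Among the promoters called most, Rpl15, Rpl37 and Rps6 carried an ETS match in this window and Rps13 did not. Of those called least, Rps10 carried one and Rpl19, Rpl23 and Rpl35a did not. Rpl15 and Rps10 also carried the pyrimidine run CTTTCC at the start itself, shown in capitals in the window from 10 bases before to 15 bases into the transcript, so this element was present at both ends of the range.
Rpl15: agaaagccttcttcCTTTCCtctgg
Rps10: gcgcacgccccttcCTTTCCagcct

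In asynchronous ESCs 67.0% of RP promoters had a peak on average, and the share differed widely between replicates. WT replicates 1 and 2 called 35 and 62 of the 75 genes (46.7% and 82.7%), against 31.4% and 52.0% of all protein-coding genes. Suv39h dn replicates 1 and 2 called 40 and 64 (53.3% and 85.3%), against 31.3% and 55.5%. Both genotypes had 1 shorter and 1 longer list, and the longer list called more RP genes in each. In mitotic ESCs fewer were called. The WT libraries gave 25 and 36 (33.3% and 48.0%, against 16.2% and 24.8% of all genes), and the Suv39h dn libraries gave 5 and 50 (6.67% and 66.7%, against 3.61% and 29.1%). Sorted chromosomes lay between these preparations and varied less. WT replicates gave 31 and 47 (41.3% and 62.7%, against 37.2% and 50.9%), and Suv39h dn replicates gave 38 and 42 (50.7% and 56.0%, against 42.8% and 42.2%).

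**Figure D1:**
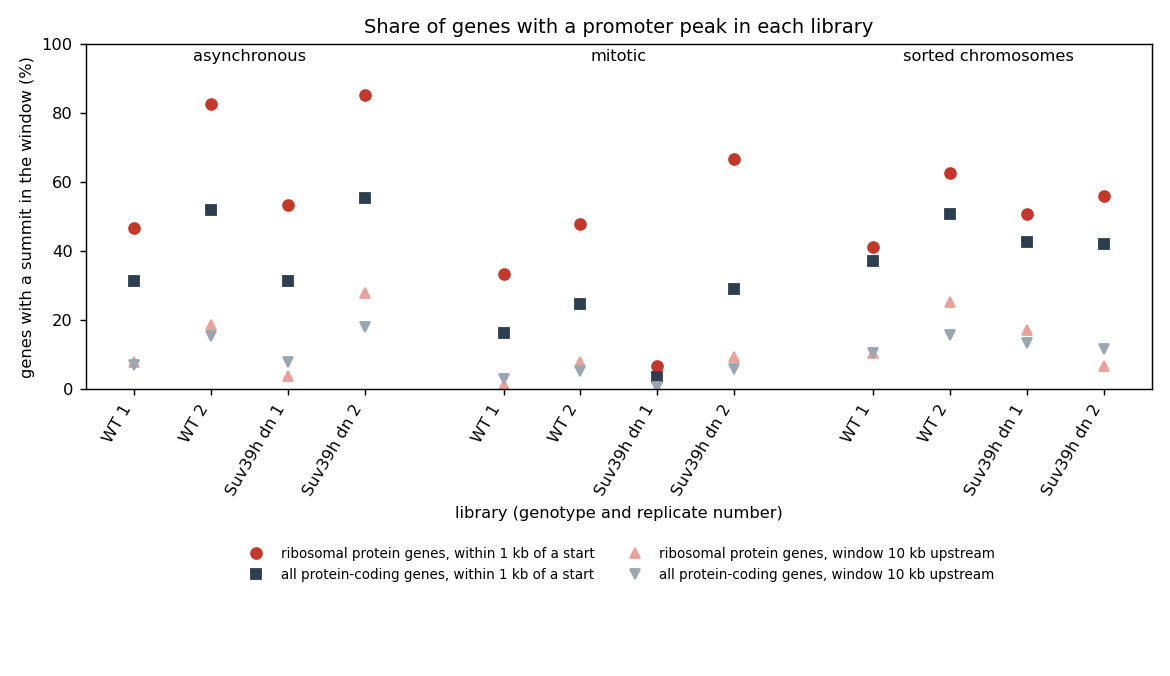
Percentage of genes with a peak summit within 1 kb of a transcript start (dark symbols) or in a window of the same width centred 10 kb upstream (pale symbols), for the 75 RP genes and for all 21938 protein-coding genes, in each of the 12 libraries (x axis). The RP share at the start exceeded the share of all genes in 12 of 12 libraries, while the share in the upstream windows was the higher one for RP genes in 8 of 12.

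The RP share thus exceeded the share of all genes in each of the 12 libraries. The mean RP share was 67.0% ± 19.8 (SD, n = 4) in asynchronous cells, 38.7% ± 25.3 (SD, n = 4) in mitotic cells and 52.7% ± 9.01 (SD, n = 4) on sorted chromosomes, with overlap between all 3 preparations. The ratio of the RP share to that of all genes was 1.58 ± 0.0931 (SD, n = 4, 1.48 to 1.70) in asynchronous cells. It was 2.04 ± 0.193 (1.85 to 2.29) in mitotic cells and 1.21 ± 0.0902 (1.11 to 1.33) on sorted chromosomes. With the full lists these ranges did not overlap. At most all 75 RP genes can be called, so the ratio is capped lower where more genes are called, as in asynchronous cells. With lists of equal length within each preparation the ranges overlapped. Mitotic Suv39h dn replicate 2 then had 5.33% of RP genes against 5.52% of all genes, and mitotic WT replicate 1 had 10.7% against 4.95%. The ratios of asynchronous WT replicate 1 (46.7% against 31.4%) and sorted Suv39h dn replicate 2 (56.0% against 42.2%) lay between them. In the window of the same width centred 10 kb upstream, RP genes were called in 1.33% to 28.0% in the libraries other than mitotic Suv39h dn replicate 1 (0 of 75) and all genes in 0.770% to 18.2% over the 12. The RP share was the higher there in 8 of 12 libraries, by most in asynchronous Suv39h dn replicate 2 (28.0% against 18.2%) and sorted WT replicate 2 (25.3% against 15.7%). In these libraries the upstream ratio was at least as large as the ratio at the start. The same held in sorted Suv39h dn replicate 1, with 17.3% against 13.4% upstream and a ratio of 1.18 at the start. Without mitotic Suv39h dn replicate 1 the mean mitotic RP share was 49.3% and the mean ratio 2.10.

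The ratio depended on which peaks were counted. RP peaks were common, and in most libraries they stood lower in the list than promoter peaks of other genes. The top 10% of a list held 0% to 25.5% of RP peaks and 0.763% to 25.3% of other promoter peaks. The RP value was the higher only in mitotic WT replicate 1 (16.0% against 9.38%) and sorted WT replicate 2 (25.5% against 21.7%). The median RP peak stood at percentiles 47.9 to 70.5 of the fold enrichment within its list, and the median promoter peak of other genes stood at percentiles 47.6 to 74.3. The RP median was the lower of the pair in 9 of 12 libraries, the exceptions being mitotic WT replicate 1 (70.5 against 58.6), mitotic Suv39h dn replicate 1 (47.9 against 47.6) and sorted Suv39h dn replicate 2 (70.4 against 66.8). When each list was cut to its 1746 most significant peaks, asynchronous WT libraries called 4 and 4 RP genes and Suv39h dn libraries 1 and 1, mitotic libraries 8 and 6 (WT) and 5 and 4 (Suv39h dn), and sorted libraries 0 and 3 (WT) and 2 and 0 (Suv39h dn). The mean ratio was then 0.781 in asynchronous cells, 1.67 in mitotic cells and 0.848 on sorted chromosomes. These rest on counts of 0 to 8 genes, and the libraries of a preparation fell on both sides of 1, with both asynchronous WT libraries above it and both Suv39h dn libraries below. With peaks required to lie over a start, in place of a summit within 1 kb, the ratios were 2.03, 2.94 and 2.62, and sorted chromosomes no longer had the lowest.

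**Figure D2:**
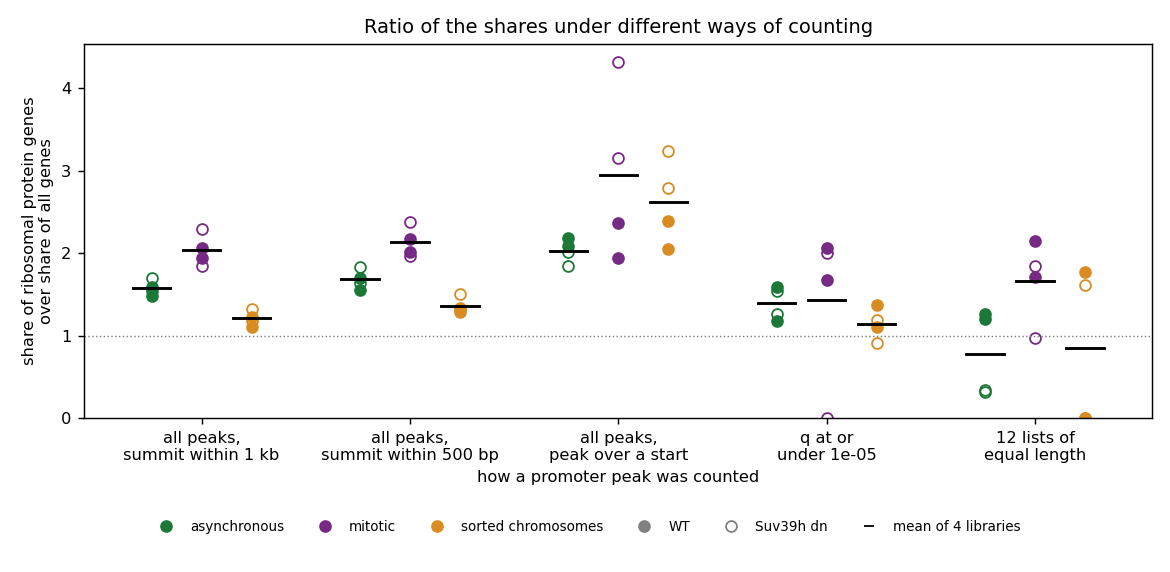
Share of RP genes divided by the share of all protein-coding genes (y axis, dotted line at 1) under 5 ways of counting a promoter peak (x axis). Points are libraries, 4 per preparation, with WT filled and Suv39h dn open, and bars are means. With all peaks and a summit within 1 kb the 3 preparations separate, from 1.11 to 2.29, and with 12 lists of 1746 peaks the asynchronous mean is 0.781 and points fall on both sides of 1.

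Single RP genes ranged from calls in all libraries to none. Of the 75, 17 were called in at least 9 libraries (22.7%, background 15.6% of all genes), 46 in 4 to 8 (61.3%, background 37.0%) and 12 in at most 3 (16.0%, background 47.4%), and 51 were called at least once in every preparation (68.0%, background 32.2%). All 4 asynchronous libraries called 24 RP genes (32.0%, background 22.3% of all genes), all 4 mitotic libraries called 3 (background 2.10%) and all 4 sorted libraries called 12 (background 21.1%). No asynchronous library called 5 RP genes (background 39.1%), no mitotic library 13 (background 63.0%) and no sorted library 14 (background 34.9%). The share of RP genes with no call was thus below the background in each preparation, while their count in all 4 sorted libraries, 16.0% of 75, was below the background.

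**Figure D3:**
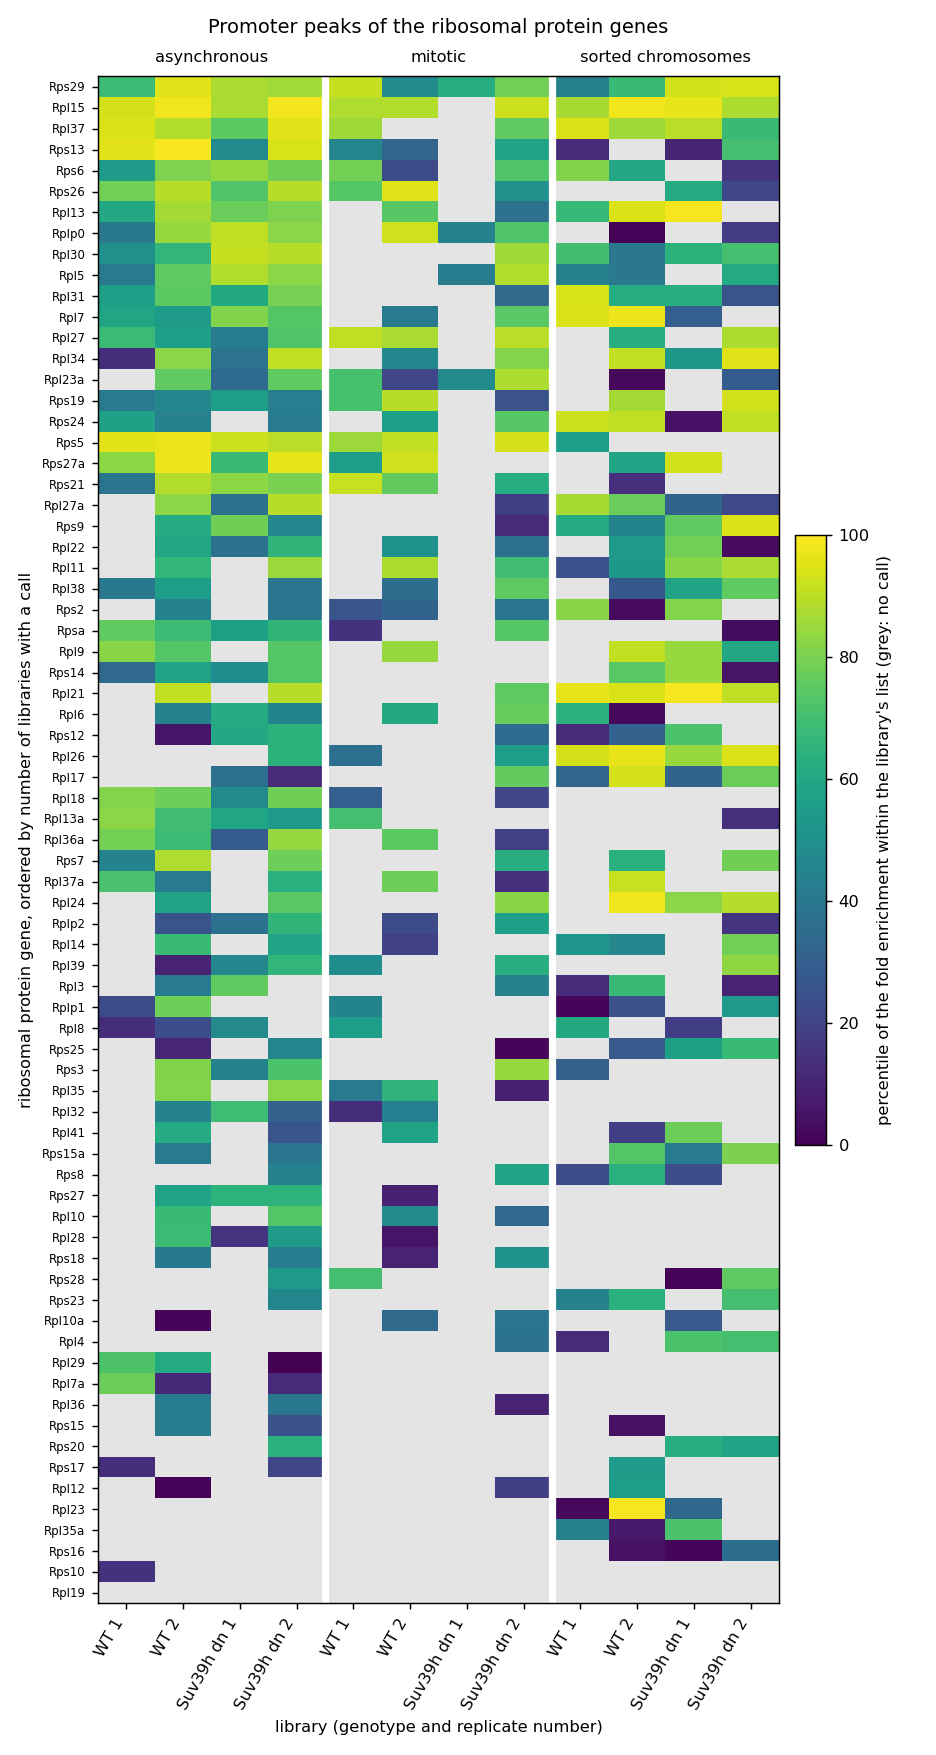
Promoter peaks of 73 of the 75 RP genes (rows, ordered by the number of libraries with a call) in the 12 libraries (columns). Colour gives the percentile of the peak's fold enrichment within its list and grey marks no call. Rps29 is coloured in all 12 columns, Rpl19 in none, and the column of mitotic Suv39h dn replicate 1 has 4 coloured cells.

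Rps29, a zinc-binding protein of the small subunit head (ENSMUSG00000034892.8, chr12:69157722-69159186), was the only RP gene called in all 12 libraries (background 1.10%). Its fold enrichment was 6.04 and 12.8 (WT) and 7.41 and 9.97 (Suv39h dn) in asynchronous libraries. In mitotic libraries it was 8.07 and 5.54 (WT) and 6.02 and 7.09 (Suv39h dn). On sorted chromosomes it was 4.21 and 5.27 (WT) and 6.56 and 7.33 (Suv39h dn). The values of the genotypes overlapped in asynchronous and mitotic libraries, and on sorted chromosomes both Suv39h dn values lay above both WT values. Fold values grow with depth, so they are compared here only side by side.

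Rpl15, a large subunit protein (ENSMUSG00000012405.16, chr14:18267823-18271391), was called in 11 libraries and missed only in the shortest list. Its asynchronous fold was 9.14 and 15.2 (WT) and 7.45 and 16.8 (Suv39h dn), the latter on 33 fragments, the most at any RP summit. In mitotic libraries it was 7.57 and 7.87 in WT, with no call in replicate 1 and 8.87 in replicate 2 in Suv39h dn. On sorted chromosomes it was 5.79 and 8.54 (WT) and 7.14 and 6.43 (Suv39h dn). The peak kept a high place throughout, at percentiles of 86.9 to 98.4 of the lists that held it. A start of Nkiras1 lies within 1 kb, so the peak cannot be assigned to 1 of these genes.

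Rps6, the small subunit protein phosphorylated by S6 kinase, Rps13 and Rpl37 were each called in 10 libraries, and Rps26, a small subunit protein near the mRNA exit channel, in 9. Rps6 gave 5.27 and 8.67 (WT) and 7.01 and 8.61 (Suv39h dn) in asynchronous libraries, 6.79 and 4.76 in WT mitotic libraries, and 6.63 in mitotic Suv39h dn replicate 2. Rps13 had the highest fold of any RP peak, 17.6 in asynchronous WT replicate 2, beside 9.86 in replicate 1 and 5.05 and 12.8 in Suv39h dn. In mitotic cells it gave 5.45 and 4.94 in WT libraries and 5.91 in mitotic Suv39h dn replicate 2. On sorted chromosomes Rpl37 gave 6.55 and 6.04 (WT) and 5.94 and 5.52 (Suv39h dn).

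The stalk proteins Rplp0, Rplp1 and Rplp2, which recruit translation factors to the large subunit, differed among themselves. Rplp0 was called in 9 libraries, with 4.84 and 9.31 (WT) and 7.92 and 9.27 (Suv39h dn) in asynchronous libraries. Mitotic WT libraries gave no call in replicate 1 and 8.63 in replicate 2 for Rplp0 and mitotic Suv39h dn libraries 5.34 and 6.63, so it was one of the few genes found even in the shortest list. Rplp2 was called in 6 libraries, 3 asynchronous, 2 mitotic and 1 sorted, all but 1 of them numbered 2 in the labels. Rpsa, a small subunit protein also described as a laminin receptor, was called in all 4 asynchronous libraries, with 6.52 and 7.33 (WT) and 5.18 and 7.19 (Suv39h dn), and in 2 mitotic and 1 sorted library. The sorted summit of Rpsa lay 2618 bp downstream of the principal start, near another annotated start. Its median summits in asynchronous and mitotic cells lay at 1.5 and 9.5 bp.

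At the other end, Rpl19, a large subunit protein (ENSMUSG00000017404.12, chr11:98026710-98030492), had no call in any library (background 25.4%). Its nearest summit lay 1469 bp from a start, in sorted Suv39h dn replicate 2, and 2825 to 25697 bp away in the others. Rps10, a small subunit gene mutated in Diamond-Blackfan anaemia, was called once, with a fold of 4.06 on 4 fragments in asynchronous WT replicate 1. That summit lay 14 bp from an annotated start and 1411 bp downstream of the principal start, and the RefSeq start of the printed sequence lies 1425 bp from the principal one. Rpl12 had 3 calls, 1 in each preparation, with folds of 3.55, 4.69 and 4.97.

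Another 4 genes without an asynchronous call, Rpl23, Rpl35a, Rpl4 and Rps16, were each called in 3 of 4 sorted libraries (4 of 75, or 5.33%, against a background of 4.85% for no asynchronous and at least 3 sorted calls, a rule chosen after these values were seen). Rpl23, a large subunit protein that can bind MDM2, gave 3.25 and 9.52 in WT sorted libraries and 4.15 in Suv39h dn replicate 1, with no call in replicate 2. Its WT replicate 2 peak stood at percentile 98.6 of the list. Rpl35a gave 4.21 and 3.68 in WT and 5.01 in Suv39h dn replicate 1, and Rps16 gave 3.56 in WT replicate 2 and 3.22 and 4.63 in Suv39h dn. The nearest asynchronous summit lay just past the 1 kb limit for Rps16, at 1026 bp in WT replicate 2, and at 1642 bp for Rpl4, 1682 bp for Rpl23 and 5254 bp for Rpl35a, so that the lack of a call depends on the distance allowed. Most of the sorted calls rested on 3 to 6 fragments, except that of Rpl23 in WT replicate 2 with 13. Rpl4 was in addition called in mitotic Suv39h dn replicate 2, and the start of Zwilch lies within 1 kb of it, as that of Iqcg does for Rpl35a.

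RP promoters had fewer calls in mitotic than in asynchronous cells, and few switched completely. More asynchronous than mitotic libraries called 57 RP genes (76.0%, background 53.9%), 12 had equal numbers (16.0%, background 44.6%), and 6 were called in more mitotic libraries (8%, background 1.44%). These backgrounds include the 25.4% of all genes with no call in any library, which count as equal and lower the other shares. A complete switch was found for 1 gene, called in 4 asynchronous and 0 mitotic libraries (1.33%, background 2.07%), and for 0 genes in the other direction (background 0%). The gene was Rps14, a small subunit protein. Its asynchronous fold was 4.41 and 6.58 (WT) and 5.07 and 7.96 (Suv39h dn), and on sorted chromosomes it was called again, with 5.50 in WT replicate 2 and 5.70 and 3.68 in Suv39h dn. A start of Ndst1 lies within 1 kb of one of its starts. The count rose to 3 without asynchronous Suv39h dn replicate 1 or without mitotic Suv39h dn replicate 2, to 2 without mitotic WT replicate 1, and to 7 with lists of equal length within each preparation, and it fell to 0 with peaks of q at or under 1e-05.

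Calls in all 4 mitotic libraries were found for 3 RP genes, among them Rpl23a and Rps29, which with Rpl5 and Rplp0 were also called in the shortest list. Rpl23a, which lies at the exit of the peptide tunnel, gave 6.31 and 4.71 in mitotic WT and 5.53 and 8.04 in mitotic Suv39h dn libraries, and was missed in asynchronous WT replicate 1.

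Calls in 4 asynchronous and 0 sorted libraries were found for 3 RP genes, among them Rpl18 and Rpl36a (4.00%, against a background of 2.33%), and 0 RP genes showed the reverse (background 2.18%). Rpl18 gave 6.97 and 8.40 (WT) and 5.05 and 8.58 (Suv39h dn) in asynchronous libraries. Its summits in these libraries lay at -2797 to -2720 bp, at an alternative start upstream of the principal one and within 1 kb of a start of Sphk2. Rpl36a, on chromosome X, gave 6.79 and 7.33 (WT) and 4.27 and 9.63 (Suv39h dn). The count rose to 6 without asynchronous WT replicate 1, to 5 without asynchronous Suv39h dn replicate 1, to 5 without sorted Suv39h dn replicate 2 and to 5 with starts of basic protein-coding transcripts only. With at least 3 asynchronous calls and none on sorted chromosomes, a rule chosen after these values were seen, there were 8 RP genes, among them Rpl18, Rpl28, Rpl29, Rpl32, Rpl36a, Rpl7a and Rps27 (10.7%, background 4.56%).

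The 3 RP genes on chromosome X, Rpl10, Rpl36a and Rpl39, lost most of their calls on sorted chromosomes. They were called in 75% of gene and library pairs in asynchronous, 50.0% in mitotic and 8.33% in sorted libraries, where a single call remained, that of Rpl39 in Suv39h dn replicate 2. Of all 948 protein-coding genes on chromosome X, 32.0% were called in asynchronous, 8.83% in mitotic and 13.7% in sorted libraries, against 43.1%, 18.8% and 44.6% of genes on other chromosomes. The part of this in the values of Rpl36a was not tested. The remaining RP genes lay on 18 chromosomes, with 14 on chromosome 7, where the shares were 75%, 35.7% and 46.4%.

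The summits of RP peaks lay close to the start in cells and further downstream on sorted chromosomes. Relative to the principal start of each gene, the median was -50 bp in asynchronous libraries (interquartile range -125 to 5 bp, 201 calls) and -69 bp in mitotic libraries (116 calls). On sorted chromosomes it was 51 bp (-38.8 to 224 bp, 158 calls). The RP share of summits within 150 bp of the principal start was 74.6%, 75.9% and 55.1%, and the share more than 150 bp downstream was 4.48%, 4.31% and 29.1%. Medians of single libraries ranged from -72 to -30.5 bp in asynchronous, -96 to -8 bp in mitotic and 38.5 to 168 bp in sorted libraries, with no overlap between cells and sorted chromosomes.

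**Figure D4:**
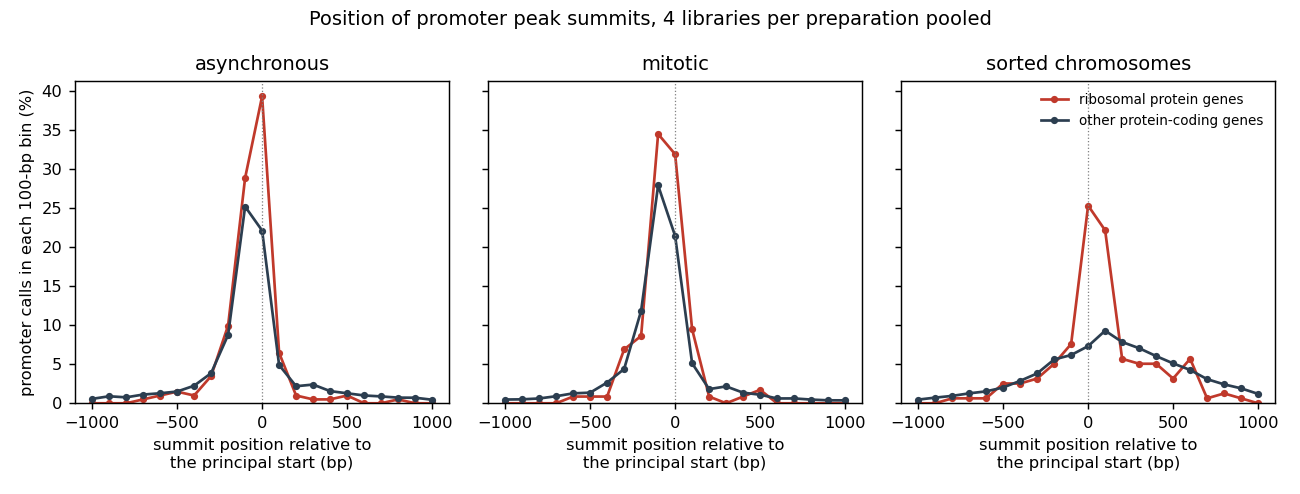
Distribution of promoter peak summits around the principal transcript start (x axis, bp, 100-bp bins) as a percentage of calls (y axis), for RP genes and other protein-coding genes, with the 4 libraries of a preparation pooled. The RP curve is narrower than that of other genes in all panels and is broader in sorted libraries than in cells. Its median moves from -50 bp in asynchronous to 51 bp in sorted libraries.

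Other genes moved in the same way and were less sharply placed. Their median was -60 bp, -78 bp and 165 bp in the 3 preparations, with 52.2%, 54.5% and 22.9% of summits within 150 bp and 20.0%, 14.8% and 51.2% more than 150 bp downstream. Of 57 RP genes with calls in both kinds of library, 42 had their median summit further downstream on sorted chromosomes than in asynchronous cells and 15 further upstream, with a median difference of 100 bp. Between mitotic and asynchronous cells, 35 of 61 lay further downstream and 26 further upstream, with a median difference of 7.5 bp. Rps29 shows how wide the scatter of a single gene was, since its summits lay at 59 and 54 bp in asynchronous WT, at 5 and -262 bp in mitotic WT, and at 168 and -196 bp in sorted WT libraries. With the nearest annotated start in place of the principal one, the mean RP share within 150 bp rose to 86.7%, 81.8% and 73.6%.

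Between the genotypes the RP promoters did not separate. The mean RP share differed, Suv39h dn minus WT, by 4.67 percentage points in asynchronous cells, -4.00 in mitotic cells and 1.33 on sorted chromosomes, and by 0.667 on average. The pooled SD between replicates was 24.1, 30.9 and 11.0 points, so each difference was smaller than the spread between replicates, and the libraries of the genotypes overlapped in every preparation. Leaving out 1 library moved the mean from -9.33 points (without mitotic Suv39h dn replicate 2) to 10.7 points (without mitotic Suv39h dn replicate 1), so its sign was set by single libraries.

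Per gene, the calls were compared by an exact two-sided permutation test of the genotypes within preparations (smallest possible p 0.00926), adjusted by the Benjamini-Hochberg method over the 16370 genes called in at least 1 library. It called 0 genes at an adjusted p under 0.05 (0%) and 0 in either direction at an unadjusted p under 0.05 (0% higher and 0% lower in Suv39h dn). A gene called in all 6 libraries of 1 genotype and none of the other would have reached the smallest p, and none was. Among the 74 RP genes tested, 29 were called in more Suv39h dn libraries, 28 in more WT libraries and 17 in equal numbers, beside 30.3%, 37.7% and 32.1% of all genes tested. Rplp1 came first, called in 5 of 6 WT and 1 of 6 Suv39h dn libraries (exact permutation p = 0.0833, adjusted p = 1). Rpl17, a large subunit protein, was called in 2 of 6 WT and 5 of 6 Suv39h dn libraries, and Rps20, a small subunit protein, in 0 of 6 and 3 of 6 (exact permutation p = 0.167 for each, adjusted p = 1). Since 3032 genes would have to share the smallest p for a call after adjustment, the adjusted test could not have called a small number of genes.

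Within a preparation, a handful of RP genes were called in both libraries of 1 genotype and neither of the other. In asynchronous cells Rplp1 was called in WT only (1.33%, background 0.479%), with folds of 4.31 and 8.38, and Rpl17 in Suv39h dn only (1.33%, background 0.784%), with 4.53 and 4.53. In mitotic cells 3 RP genes were called in WT only, among them Rpl32 and Rps27a, the latter encoding a fusion of ubiquitin with a small subunit protein (4.00%, background 1.02%). Rpl5, which together with Rpl11 can bind MDM2, was called in mitotic Suv39h dn only (1.33%, background 0.251%), with 5.19 and 8.14. Each of the genes named here was also called in the other genotype in another preparation, Rpl5 for instance in asynchronous WT with 4.92 and 8.07.

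On sorted chromosomes 4 RP genes were called in Suv39h dn only, among them Rps20, Rps26 and Rps28 (5.33%, background 1.64%), and Rpl6 was called in WT only (1.33%, background 2.43%). The Rps26 calls were 4.80 and 4.22, those of Rps20 4.83 and 5.14 and those of Rps28 3.20 and 5.65. These 6 calls rested on 3 to 8 fragments. The 2 Rpl6 calls, 4.83 and 3.43, lay at different starts of the gene, 1677 bp downstream and 35 bp upstream of the principal one.

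In asynchronous and mitotic cells more RP genes followed the replicate number than the genotype. Both asynchronous libraries numbered 2 and neither numbered 1 called 13 RP genes (17.3%, background 11.6%), and in mitotic cells there were 14 (18.7%, background 7.23%). On sorted chromosomes there were 5, Rpl23a, Rpl27, Rplp0, Rps19 and Rps7 (6.67%, background 3.78%). Rpl8 went the other way there, called in both sorted libraries numbered 1 and neither numbered 2. The asynchronous and mitotic lists numbered 2 were also the longer ones of each genotype, with 56897 against 22344 and 80602 against 25074 peaks in asynchronous cells, and 13320 against 6495 and 14328 against 1746 in mitotic cells. List length and replicate number cannot be told apart in these cells. The lowest background, the measure of relative depth, rose with list length in asynchronous cells (0.149 and 0.306 in WT, 0.172 and 0.304 in Suv39h dn). It was 0.204 and 0.213 in mitotic Suv39h dn replicates 1 and 2. In sorted Suv39h dn it was 0.198 in replicate 1, with 59444 peaks, and 0.268 in replicate 2, with 44885. The part of each in the calls was not tested.

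Neither subunit stood apart. The 46 large subunit genes had mean shares of 66.8%, 39.7% and 52.2% in asynchronous, mitotic and sorted libraries, and the 29 small subunit genes 67.2%, 37.1% and 53.4%. The 18 RP genes with a start of another protein-coding gene within 1 kb were called less often, in 56.9%, 33.3% and 47.2%, than the 57 without one, in 70.2%, 40.4% and 54.4%, although their windows cover more than their own promoter. No test was made of these shares, since genes of 1 library are not replicates.

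Other genes of protein synthesis also had their lowest shares in mitotic cells. In 2 of the 4 lists, as over all other protein-coding genes, the mean sorted share was slightly above the asynchronous one. These gaps were far smaller than the spread between libraries. For the RP genes and the remaining lists the mean sorted share was below the asynchronous one. Translation factors and other genes with TOP mRNAs (16 genes, among them Eef1a1, Eef1g and Hnrnpa1) were called in 65.6%, 37.5% and 67.2%, and 7 of 16 in all 4 asynchronous libraries. Genes of ribosome biogenesis (21, among them Npm1, Fbl and Polr1a) were called in 73.8%, 31.0% and 59.5%. Mitochondrial ribosomal protein genes (78) had 58.3%, 29.8% and 52.6%, and the 12 RP genes and paralogs outside the symbol rule, such as Rps4x, Rps3a1 and Rpl39l, had 39.6%, 16.7% and 41.7%. All other protein-coding genes had 42.5%, 18.3% and 43.3%. The RP set had the highest mean share of these lists in mitotic cells, ahead of the translation factors. Ribosome biogenesis genes were above it in asynchronous cells, and both ribosome biogenesis genes and translation factors on sorted chromosomes. The libraries of these 3 lists overlapped in every preparation.

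**Figure D5:**
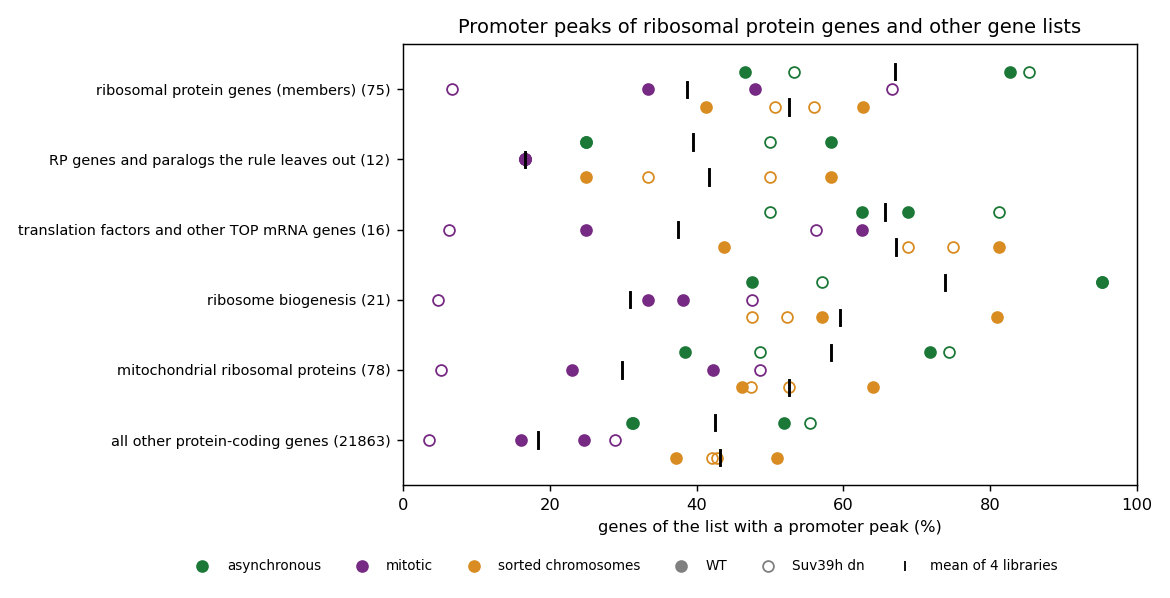
Percentage of the genes of each list with a promoter peak (x axis), for the RP genes and 5 other groups of protein-coding genes (y axis, number of genes in brackets). Points are libraries, coloured by preparation, with WT filled and Suv39h dn open, and bars are means of 4. In mitotic libraries the RP genes run from 6.67% to 66.7%, overlapping the lists of translation factors, ribosome biogenesis and mitochondrial ribosomal proteins.

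The sequences of RP promoters shared elements that the symbol rule did not use. Of the 75 genes, 55 had a window in the RefSeq table, from 250 bases before to 50 bases after the start. The ETS letters CCGGAAG, read on both strands, were found in 22 of 55 (40.0%) against 12.5% of 16209 promoters of the same length. TCTCGCGA was found in 10 (18.2%) against 1.56%, and the YY1 letters AAGATGG in 8 (14.5%) against 6.54%. The pyrimidine run CTTTCC or CTTTTC, on the gene strand and within 10 bases before to 15 bases after the start, was found in 12 (21.8%) against 1.68%. Other pyrimidine runs, such as ctctttttc at the start of Rps6, were not searched, so these shares do not count all TOP-like starts. These 4 elements were thus each more frequent than over all promoters, with no set test made.

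Other letters were less particular. GGGCGG was found in 32 of 55 (58.2% against 48.8%), the NRF1 letters GCGCATGC in 3 (5.45% against 3.82%), the E-box CACGTG in 5 (9.09% against 8.16%) and TATAAA in 5 (9.09% against 13%). The GC content was close to that of all promoters, with medians of 57.7% and 57.0%. RP genes with an ETS match were called in 7.18 ± 2.26 libraries (SD over 22 genes) and those without in 5.64 ± 2.47 (SD over 33 genes), and those with the YY1 letters in 4.88 ± 2.10 (8 genes) against 6.49 ± 2.49. The spreads overlap widely, and a match describes letters, not a bound factor. RefSeq and GENCODE starts differed by 0 to 1425 bp among the 8 printed genes, which moves these windows.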

How the data were processed

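ATAC-seq peak lists of 12 libraries were used. The authors demultiplexed with bcl2fastq 2.20.0, trimmed with Trim Galore 0.4.4, aligned to UCSC mm10 with Bowtie2 2.2.9, sorted with SAMtools 1.2, discarded duplicates, mitochondrial reads and improper pairs, shifted the ends and kept fragments under 100 bp with deepTools, and ran MACS2 on paired-end fragments of each library (the version of MACS2 is not given in the sources used here). Their methods also state that peaks in blacklisted regions were removed, and name no filter on mapping quality, so reads shared with RP pseudogenes are a source of uncertainty. Each peak of the deposited lists carries a fold enrichment (a ratio of pileup to background), a −log10 p-value, a −log10 q-value and a score. The lowest −log10 q of each list, 1.30 to 1.32, corresponds to a q-value of 0.05.

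A gene was called where a summit lay within 1 kb of the start of any transcript of GENCODE vM21. Where several peaks did, the one with the highest fold was described. The principal start was that of the best APPRIS transcript. The deposited files hold no reads. Fragments at a summit and the background were recovered from fold and −log10 p, within 0.01, for 100% of peaks whose −log10 p was under 60. With 3 to 33 fragments behind each RP call, a missing call is weak information.

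The members, gene lists, motifs and tests were chosen with earlier results of these data known. Named with values were the genes spelled out in the symbol rule, the 6 called in the most and the 6 in the fewest libraries, those called in 4 of 4 libraries of asynchronous cells and 0 of 4 of another preparation, those called in both libraries of 1 genotype alone within a preparation, and those of the shortest list. Other genes were named after their values were seen. A few genes that these rules select are not reported here by name, although they are part of all counts. The voom-limma test of the study needs read counts per peak. Genotypes were compared by an exact permutation test instead. In a simulation of it over 16370 genes with the call rates of the real libraries, 12 of 16170 unchanged genes had an unadjusted p under 0.05. All 200 genes planted as called in Suv39h dn alone did, as the construction requires. Alternatives were a stricter q, other distances and starts, equal list lengths and leaving out each library. Python 3.11.15, numpy 2.4.6, scipy 1.17.1, pandas 2.3.3 and matplotlib 3.10.9 were used.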

Additional observations from a re-analysis of the deposited data

How the results depend on the processing

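With peaks of q at or under 1e-05, the mean RP share fell to 42.7% in asynchronous and 12% in sorted libraries, the ratio to all genes was 1.39 in asynchronous and 1.43 in mitotic libraries, 0 RP genes were called in 4 asynchronous and 0 mitotic libraries, and 1 gene of all passed an unadjusted p of 0.05 between genotypes. A summit within 500 bp gave ratios of 1.68 (asynchronous) and 1.36 (sorted). A peak over a start gave 2.03, 2.94 and 2.62 in asynchronous, mitotic and sorted libraries, a sorted RP share of 29.7%, 0 RP genes in 4 asynchronous and 0 mitotic libraries, and 1 gene between genotypes. Basic protein-coding starts gave 5 RP genes in 4 asynchronous and 0 sorted libraries and 1 gene between genotypes. Lists of equal length within a preparation gave a mitotic RP share of 7.67%, a mitotic ratio of 1.67, 7 RP genes in 4 asynchronous and 0 mitotic libraries, and 2 genes between genotypes. Equal length over all 12 lists gave RP shares of 3.33%, 7.67% and 1.67%, ratios of 0.781, 1.67 and 0.848, and 0 RP genes in both classes of 4 against 0. The shorter lists hold fewer peaks by construction, and otherwise the cause was not tested.

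Leaving out 1 library gave RP shares of 60.9% to 73.8% (asynchronous), 29.3% to 49.3% (mitotic) and 49.3% to 56.4% (sorted), ratios of 1.54 to 1.61, 1.95 to 2.10 and 1.17 to 1.25, 1 to 3 RP genes in 4 asynchronous and 0 mitotic libraries, and 3 to 6 in 4 asynchronous and 0 sorted libraries. The mean genotype difference ran from -9.33 to 10.7 points. Between 2 genes (without asynchronous WT replicate 1 or mitotic Suv39h dn replicate 2) and 15 genes (without asynchronous Suv39h dn replicate 2) then passed an unadjusted p of 0.05, and 0 passed the adjusted one. Without any other single library the number was 3 to 11. No genotype difference changed sign beyond the spread between replicates in the other settings.

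Same-numbered libraries of the genotypes correlated in their deviations from the group means over genes by 0.213 (asynchronous), 0.115 (mitotic) and 0.0244 (sorted), not above 0.1 in every preparation, so the numbers were not taken to pair the libraries. With the replicate block, 0 genes passed an unadjusted p of 0.05, as without it, and the smallest p that this design allows is 0.0312.

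The ratios, the summit positions, the genotype difference within each preparation and the distance to the nearest annotated start were added after the data were seen. Of 221 values recomputed, 170 stayed within the spread between replicates or within 1.5 times of a count, and 51 did not. Depth is known only relatively, and with 2 libraries per group the spread itself is poorly known.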
